A study of Mus musculus with 6 samples.

Results

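The genes described here are Fmn2, Spire1, Spire2, Myo5b, Rdx, Ezr, Msn, Cfl1 and Pfn1, which encode actin nucleators, a vesicle motor, linkers between actin and the plasma membrane, and actin monomer and filament regulators of the mouse oocyte and zygote. They were chosen by symbol, and each matched 1 row of the deposited table, so that 9 of 25731 genes are followed across the study. RNA was measured in 6 libraries, each from a pool of 13 wild-type pronuclear-stage zygotes at E0.5 on a B6C3F1 x CD1 background. At 15 h post-hCG every zygote was injected with Oregon green dextran at 0.02 mg/mL and, at 0.2 mg/mL, the mRNA of mCherry-Trim21. In the ZP3 Trim-away group (3 libraries) the injection also held anti-ZP3 antibody at 1 mg/mL, and in the controls (3 libraries) the antibody was replaced by its buffer. RNA was collected 10 h after injection. TRIM21 is a ubiquitin ligase that binds antibodies and directs them, with their target protein, to the proteasome. The comparison asks which transcripts differ soon after the zona pellucida protein ZP3 is targeted. None of the 9 genes is itself a target of the antibody, and RNA values do not measure protein.

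In the mouse oocyte, the formin FMN2 and the SPIRE proteins work as a pair that nucleates a cytoplasmic network of long actin filaments. The network runs between vesicles carrying RAB11, and myosin Vb, the product of Myo5b, moves those vesicles towards the cell surface. At the cortex, the ERM proteins ezrin, radixin and moesin tie actin filaments to membrane proteins. Filaments are shortened and severed by cofilin, the product of Cfl1, and profilin, the product of Pfn1, hands actin monomers to formins.

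Values are RPKM, read counts scaled to exon length and to the total of the library. The deposited columns of control replicates 2 and 3 never lay below 0.5 times replicate 1 in 13202 genes and lay at exactly 0.5 times in 2059 and 2090 genes. They were therefore read as means with replicate 1, and the further library was separated from each. Totals were 17378252 to 20005721 reads for the controls and 15291002 to 15746635 reads for ZP3 Trim-away. Reads of Trim21, whose sequence the injected mRNA carries, took 14.6 to 18.1% of the controls and 9.12 to 11.0% of ZP3 Trim-away. All 10 zygote and oocyte markers were present, with a summed level of 9129 to 11145 RPKM among controls and 11242 to 13559 RPKM among Trim-away libraries. Of 10 cumulus and granulosa cell markers, 8 had values, and their sum was 0.404 to 1.85 RPKM among controls and 8.37 to 17.0 RPKM among Trim-away libraries. Most of the Trim-away sum came from Tnfaip6, Inha and Cyp11a1, of which Inha was at 0 in all 3 controls and at 2.32 to 7.49 RPKM among Trim-away libraries. Foxl2 and Fshr were at 0 in every library apart from Trim-away replicate 2, where they stood at 0.020 and 0.350 RPKM. Amhr2 was at 0 in all 3 controls and in Trim-away replicate 2, and at 0.380 and 0.815 RPKM in Trim-away replicates 1 and 3. The median gene had a log2 fold change of 0.22 between the groups. That median was 0.06 after median ratio scaling and -0.01 after quantile normalization, so the differences of Fmn2 and Cfl1 are also given relative to it.

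The 9 transcripts fell into an abundant set and a scarce set. In RPKM, which is per exon length, Rdx had the highest mean over the 6 libraries (154 RPKM), followed by Cfl1 (116), Myo5b (37.7), Fmn2 (29.6), Spire1 (28.5) and Pfn1 (16.0). Ezr (1.20 RPKM), Spire2 (1.11) and Msn (0.641) made up the scarce set. The 2 sets did not overlap, since the lowest value in the abundant set was 6.76 RPKM and the highest in the scarce set was 2.60 RPKM. Within the abundant set, neighbours overlapped over the 6 libraries, apart from Cfl1 (75.9 to 141 RPKM) and Myo5b (34.7 to 42.2 RPKM). In each library Rdx lay above Cfl1, and its level was at percentile 98.8 to 99.2 of the table. The scarce genes rested on few reads, between 0 and 306 per library, whereas the abundant genes had 302 to 14646.

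**Figure D1:**
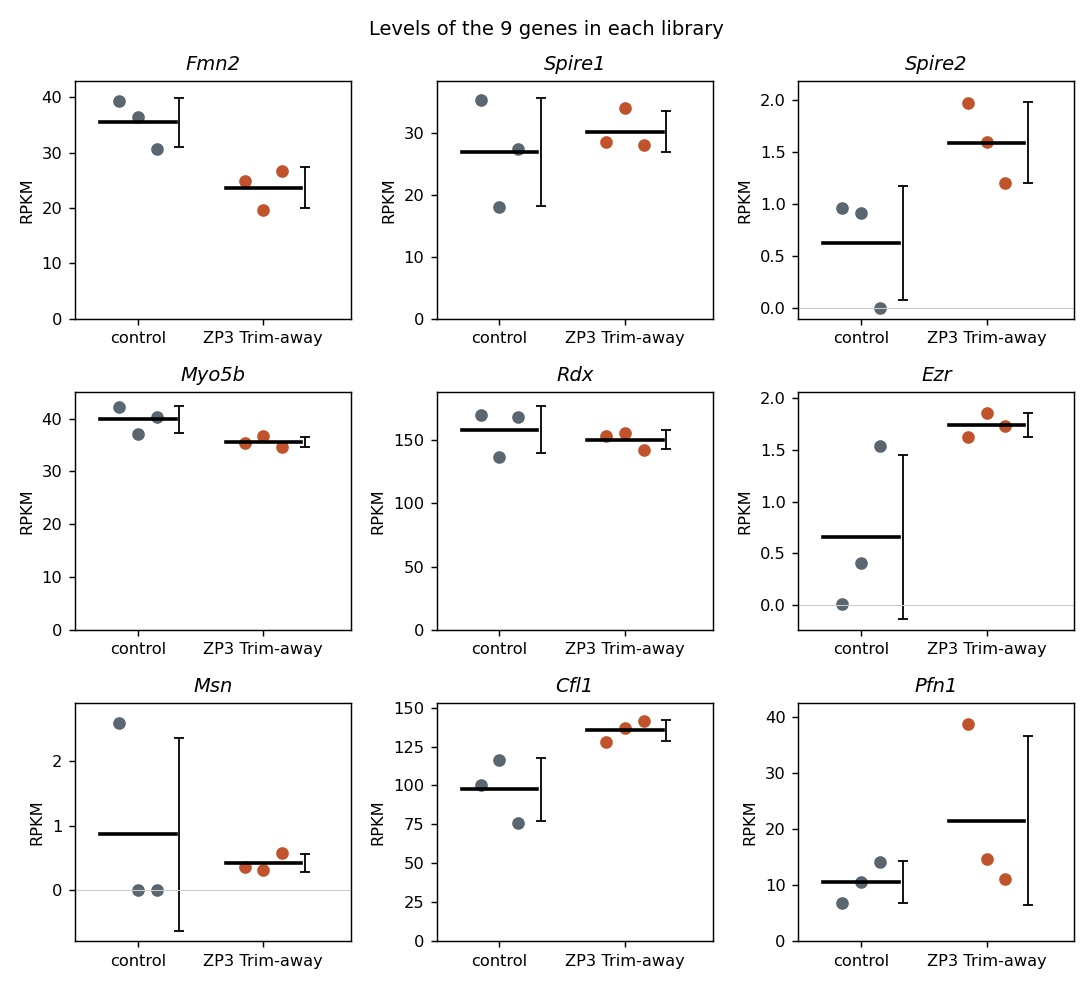
RPKM of each gene (vertical axis, linear) in the 3 control libraries (grey points) and the 3 ZP3 Trim-away libraries (orange points), in replicate order from left to right within a group. Horizontal bars are group means and whiskers 1 SD. Fmn2 lay at 30.6 to 39.3 RPKM among controls and at 19.6 to 26.7 RPKM among Trim-away libraries, without overlap, and the 3 controls of Msn were 2.60, 0 and 0 RPKM.

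None of the 9 genes passed the comparison between the groups. The groups were compared by limma on log2(RPKM + 1), two-sided, with Benjamini-Hochberg adjustment over the 9965 genes whose mean reached 1 RPKM, and a threshold of 0.05. Of the 9 genes, 8 were tested and Msn fell under the filter. No gene of the 8 was called, where 0.592% of all tested genes were called as higher in ZP3 Trim-away and 0.0401% as lower. At an unadjusted p under 0.05 limma gave 1573 of all 9965 tested genes as higher and 369 as lower. Among the 8 it gave 1 gene in each direction, Cfl1 above and Fmn2 below the controls. Which genes did so depended on scaling. After median ratio scaling, Cfl1 had a log2 fold change of 0.30 (unadjusted p = 0.095, limma) and Myo5b -0.35 (unadjusted p = 0.036, limma). After quantile normalization the unadjusted p (limma) was 0.113 for Cfl1 and 0.045 for Myo5b. Fmn2 stayed under 0.05 with both scalings. The 3 Trim-away libraries all lay above the 3 controls for 3 genes (Spire2, Ezr and Cfl1), against 20.3% of all tested genes. They all lay below for 2 genes (Fmn2 and Myo5b), against 6.34% of all tested genes. Log2 fold changes were positive in 5 and negative in 3 of the 8, where 6709 of the 9965 tested genes were positive. The median of the 8 was 0.35. That median was 0.16 after median ratio scaling and 0.067 over the 6 genes whose mean reached 10 RPKM. Spire2 and Ezr passed the filter only through the Trim-away libraries, so their direction was partly fixed by it. The labels call the libraries biological replicates without saying that the pools came from separate collections. P-values therefore reflect how much these pools vary, and that variation may be technical. In pooled zygotes, a lower share of a transcript in every zygote and its absence from some zygotes cannot be told apart.

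**Figure D2:**
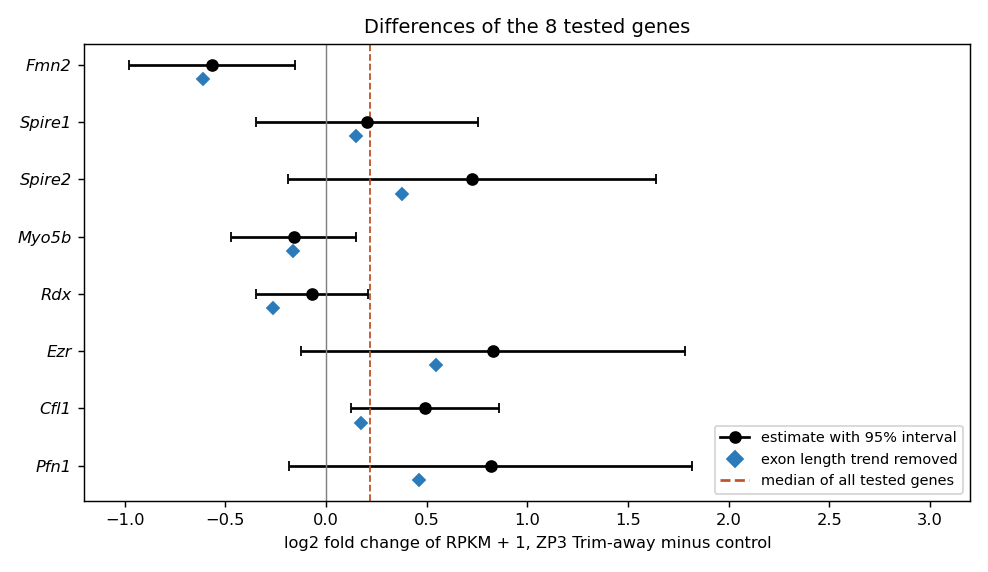
Log2 fold change of RPKM + 1, ZP3 Trim-away minus control (horizontal axis), for the 8 tested genes, as black points with 95% intervals from limma. Blue diamonds give the estimate after the trend with exon length was removed, and the dashed line is the median of all tested genes (0.22). Without further scaling, the intervals of Fmn2 and Cfl1 leave out 0, on opposite sides, and those of the other 6 genes include it.

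Fmn2, the formin of the cytoplasmic actin network, was the gene with the most negative difference. It stood at 39.3, 36.5 and 30.6 RPKM in control replicates 1 to 3 and at 24.8, 19.6 and 26.7 RPKM in Trim-away replicates 1 to 3. Every Trim-away library lay below every control. The means were 35.5 ± 4.43 RPKM for the controls and 23.7 ± 3.71 RPKM for ZP3 Trim-away (SD, n = 3 per group), the second being 66.8% of the first. The log2 fold change was -0.57 ± 0.18 (SE), with a 95% interval from -0.98 to -0.16 (limma adjusted p = 0.143), and it was -0.78 relative to the median gene. Fmn2 came 874th by p among the tested genes, and 5.04% of them had a lower log2 fold change. These values rested on 2450 to 5811 reads per library. The counting interval was 38.3 to 40.3 RPKM in control replicate 1 and 29.7 to 31.6 RPKM in control replicate 3 (exact Poisson, 95%), so pools of 1 group varied by more than the counting error. The difference remained negative in each of 16 alternative settings, from -0.75 to -0.44. It passed the threshold in 1 of them, which used the deposited columns unchanged (-0.65, limma adjusted p = 0.00576). There, control replicate 1 enters all 3 control columns, which narrows the spread between them.

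Of the Spire genes, whose products start filaments together with FMN2, Spire1 carried nearly all of the transcript. Spire1 stood at 35.3, 17.9 and 27.4 RPKM in the 3 controls and, after ZP3 Trim-away, at 28.5, 33.9 and 28.0 RPKM. The Trim-away libraries all lay within the range of the controls, in which replicate 2 was low. Its log2 fold change was 0.20 ± 0.24, with a 95% interval from -0.35 to 0.75 (limma adjusted p = 0.682). The sign rested on control replicate 2, since the value without that library was -0.051. Spire2 stood at 0.966, 0.916 and 0 RPKM in the controls, from 45, 46 and 0 reads. In ZP3 Trim-away it stood at 1.97, 1.60 and 1.20 RPKM, from 78, 63 and 46 reads. The 3 Trim-away values lay above all controls, and the 0 reads of control replicate 3 allow a level of up to 0.0688 RPKM (3 reads). The counting intervals of Trim-away replicate 3 (0.877 to 1.60 RPKM) and control replicate 1 (0.704 to 1.29 RPKM) overlapped, so at this depth those libraries could not be separated. These intervals and limits hold for counting error alone, because reads copied by PCR do not each stand for a molecule. The log2 fold change of Spire2 was 0.72 ± 0.40, with a 95% interval from -0.19 to 1.64 (limma adjusted p = 0.363). It was 0.41 without control replicate 3, 1.80 with a pseudocount of 0.1 and 0.24 after quantile normalization.

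The balance within and between the nucleators was also compared inside each library, where scaling has no effect. Spire1 made up 97.3, 95.1 and 100% of the summed Spire RPKM in the controls and 93.5, 95.5 and 95.9% in ZP3 Trim-away. The groups overlapped, and the difference of -2.52 percentage points had a two-sided exact permutation p of 0.3, where 3 libraries against 3 cannot go below 0.1. The difference was -1.26 percentage points without control replicate 3, which had no Spire2 read. The ratio of Fmn2 to Spire1 RPKM, chosen after the values were seen, was 1.11, 2.03 and 1.12 in the controls and 0.869, 0.577 and 0.956 in ZP3 Trim-away. Fmn2 exceeded Spire1 in each control and lay under it in each Trim-away library. The exact permutation p was 0.1, the smallest the design allows. Because the ratio was chosen with the values known, that p cannot serve as a test. The ratio of 2.03 came from control replicate 2, in which Spire1 was low.

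Myo5b, the motor of the RAB11 vesicles, varied least of the 9 genes within each group. It stood at 42.2, 37.1 and 40.3 RPKM in the 3 controls and, after ZP3 Trim-away, at 35.3, 36.6 and 34.7 RPKM. The groups did not overlap, but the highest Trim-away value and the lowest control were close. The means were 39.9 ± 2.58 and 35.5 ± 0.997 RPKM (SD, n = 3 each), and the Trim-away mean was 89.1% of the control mean. The log2 fold change was -0.16 ± 0.14, with a 95% interval from -0.47 to 0.15 (limma adjusted p = 0.557).

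Among the ERM linkers, radixin was the transcript of the zygote. Rdx stood at 170, 137 and 168 RPKM in the 3 controls and, after ZP3 Trim-away, at 153, 156 and 142 RPKM. All Trim-away libraries lay between the lowest and the highest control. The means were 158 ± 18.6 and 150 ± 7.45 RPKM (SD, n = 3 each), with a log2 fold change of -0.07 ± 0.12 and a 95% interval from -0.35 to 0.21 (limma adjusted p = 0.793). The interval leaves out log2 fold changes of 1 and -1. Rdx took 98.5, 99.7 and 99.1% of the summed ERM RPKM in the controls and 98.7, 98.6 and 98.4% in ZP3 Trim-away, a difference of -0.51 percentage points (two-sided exact permutation p = 0.3). It was -0.81 without control replicate 1 and -0.20 without control replicate 2.

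Ezr, encoding ezrin, the ERM protein of microvilli, was scarce and uneven in the controls. It stood at 0.0164, 0.410 and 1.54 RPKM there, from 1, 27 and 88 reads. In ZP3 Trim-away it stood at 1.62, 1.86 and 1.73 RPKM, from 84, 96 and 87 reads. The Trim-away libraries were alike and lay above the controls, although control replicate 3 came close and its counting interval (1.23 to 1.90 RPKM) covered all 3 of them. The log2 fold change was 0.83 ± 0.42, with a 95% interval from -0.12 to 1.78 (limma adjusted p = 0.319). It was 0.53 without control replicate 1, 1.99 with a pseudocount of 0.1 and 0.32 after quantile normalization.

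Msn, encoding moesin, was found in 1 of the 3 controls. It was listed at 2.60 RPKM in control replicate 1, from 306 reads, and at 0 in control replicates 2 and 3, where 0 reads allow up to 0.0237 and 0.0273 RPKM. In ZP3 Trim-away it was at 0.361, 0.312 and 0.568 RPKM, from 36, 31 and 55 reads. The control pools thus differed among themselves by more than they differed from ZP3 Trim-away, and counting error does not span the gap between 306 and 0 reads. With no filter on low values the log2 fold change of Msn was -0.12 (limma adjusted p = 0.911). With the columns as deposited it was -0.92 (limma adjusted p = 0.0223), where the value of replicate 1 is spread over all 3 control columns. Ezr and Msn are widely transcribed in somatic cells, and the 8 cumulus and granulosa markers with values were higher in sum in the Trim-away libraries, as given above. In control replicate 1, with the most Msn, Ptgs2 was the only one of these markers above 0, at 1.78 RPKM. The part of such cells in either transcript was not tested.

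Cfl1, encoding the cofilin of non-muscle cells, stood at 100, 117 and 75.9 RPKM in the 3 controls and, after ZP3 Trim-away, at 128, 137 and 141 RPKM. Every Trim-away library lay above every control, and the controls were spread more widely. The means were 97.5 ± 20.5 and 135 ± 6.86 RPKM (SD, n = 3 each), the second being 139% of the first. The log2 fold change was 0.49 ± 0.16, with a 95% interval from 0.12 to 0.86 (limma adjusted p = 0.152), and 0.27 relative to the median gene. It was 0.32 without control replicate 3 and 0.17 after the trend with exon length was removed. Part of the Cfl1 count is uncertain, since 468 bp of its 2844 bp of exon (16.5%) lie under Snx32 on the opposite strand. Snx32 itself was listed at 0 to 2.05 RPKM. In addition, 3.22% of the 72-base stretches (the length of a read) of the Cfl1 transcripts also occur in the processed pseudogene Gm6180. That pseudogene stood at 15.0, 15.5 and 12.9 RPKM in the 3 controls and, after ZP3 Trim-away, at 21.8, 21.2 and 20.4 RPKM, in the same direction as Cfl1.

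Pfn1, encoding the main profilin, was the most variable of the abundant genes. It stood at 6.76, 10.6 and 14.2 RPKM in the 3 controls and, after ZP3 Trim-away, at 38.8, 14.6 and 11.0 RPKM. Trim-away replicate 1 stood alone above the other libraries, and the remaining Trim-away libraries lay among or next to the controls. The means were 10.5 ± 3.70 and 21.5 ± 15.1 RPKM (SD, n = 3 each), with a log2 fold change of 0.82 ± 0.44 and a 95% interval from -0.18 to 1.82 (limma adjusted p = 0.348). Without Trim-away replicate 1 the log2 fold change was 0.31.

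The longer of these transcripts had the lower log2 fold changes. Over 9858 tested genes with a known exon length, log2 fold change and length had a Spearman correlation of -0.30, computed across genes, which are not independent replicates. The median length was 3626 bp. The 4 tested genes above it (Myo5b with 9766 bp, Fmn2 with 7960, Spire1 with 7766 and Rdx with 4639) had log2 fold changes of -0.57 to 0.20. The 4 below it (Ezr with 3290 bp, Cfl1 with 2844, Spire2 with 2510 and Pfn1 with 2405) had 0.49 to 0.83. After the trend was removed, Fmn2 stood at -0.61 and Rdx at -0.26, while Ezr stood at 0.55, Pfn1 at 0.46, Spire2 at 0.38 and Cfl1 at 0.17. No sign turned, but removing the trend also moved the median of all genes from 0.22 to -0.018. Relative to the median gene, long and short genes both moved towards 0, for example Fmn2 from -0.78 to -0.59, Myo5b from -0.38 to -0.14 and Pfn1 from 0.60 to 0.48, while Spire1 went from -0.014 to 0.17.

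**Figure D3:**
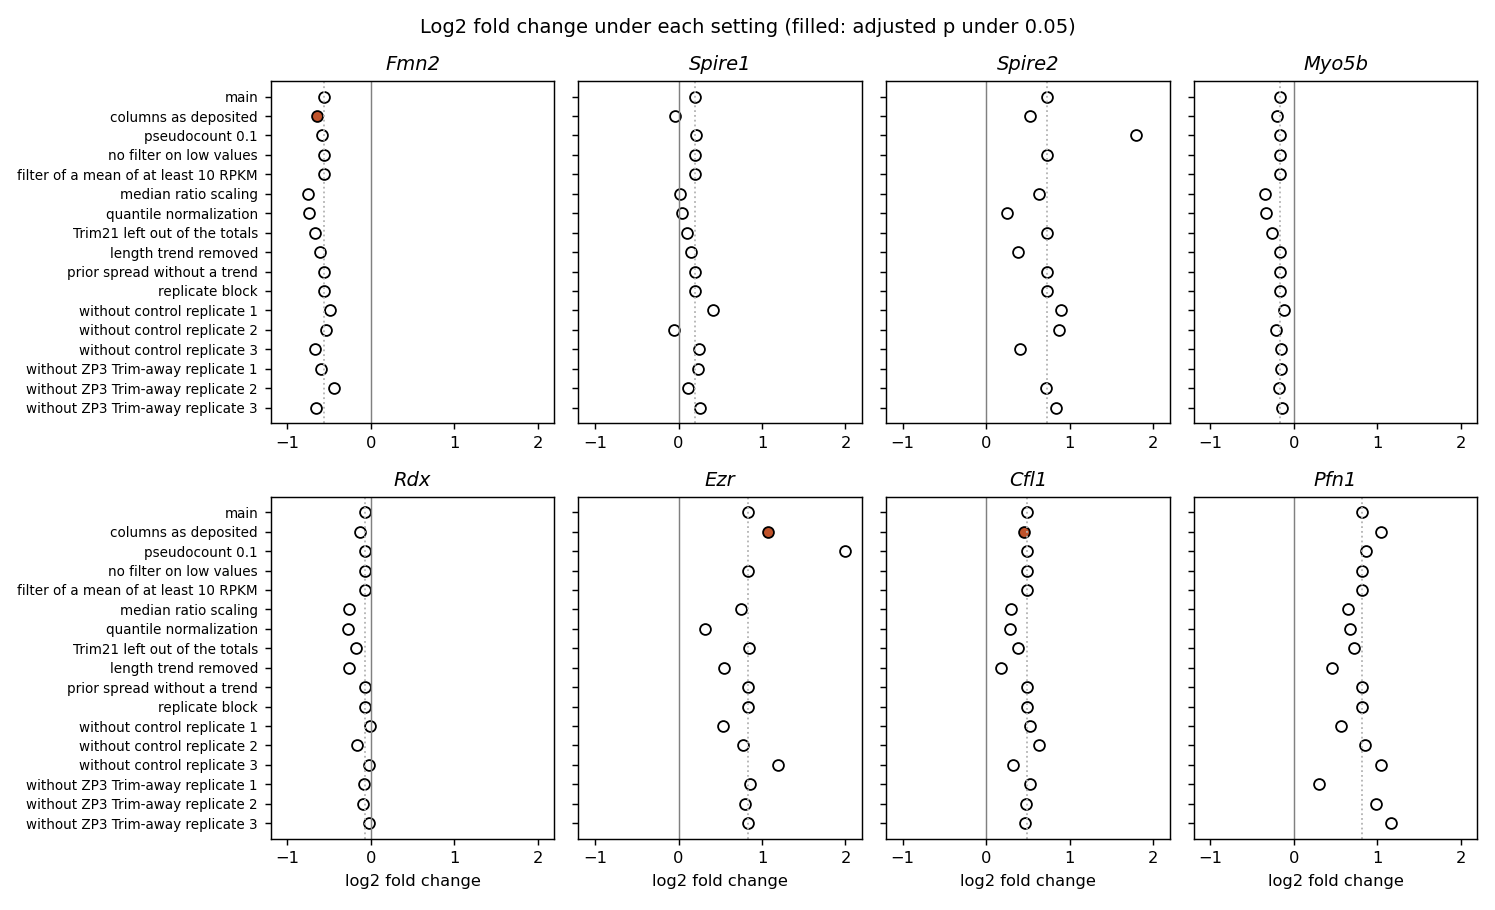
Log2 fold change, ZP3 Trim-away minus control (horizontal axis), of each of the 8 tested genes under the main setting and each alternative (vertical axis), where filled points have an adjusted p under 0.05. The dotted line in each panel is the main value. Filled points occur only with the columns as deposited, for Fmn2, Ezr and Cfl1, and the points of Spire1 cross 0 there and without control replicate 2.

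The other genes of the same machinery were taken from 6 lists by role, 81 genes with values, of which 54 were tested. None passed the threshold. At an unadjusted p under 0.05 limma gave 9 higher and 5 lower of the 54, against 1573 higher and 369 lower of all 9965 tested genes. The log2 fold changes were positive in 30 and negative in 24, where 6709 of the 9965 were positive. The Trim-away libraries all lay above the controls for 10 genes and all below for 8 of the 54, where the shares over all tested genes were 20.3% and 6.34%. Among the 10 was Rab11b, with means of 0.870 RPKM for controls and 1.26 RPKM for Trim-away libraries. Rab11b passed the filter only through the Trim-away libraries. The median was 0.07, where the median of all tested genes was 0.22. After the trend with exon length was removed, the 2 medians were -0.05 and -0.018. The genes of the lists with an unadjusted p under 0.05 (limma) then went from 14 to 6 of 54. Over all tested genes the same count went from 1942 of 9965 to 1517 of 9858.

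**Figure D4:**
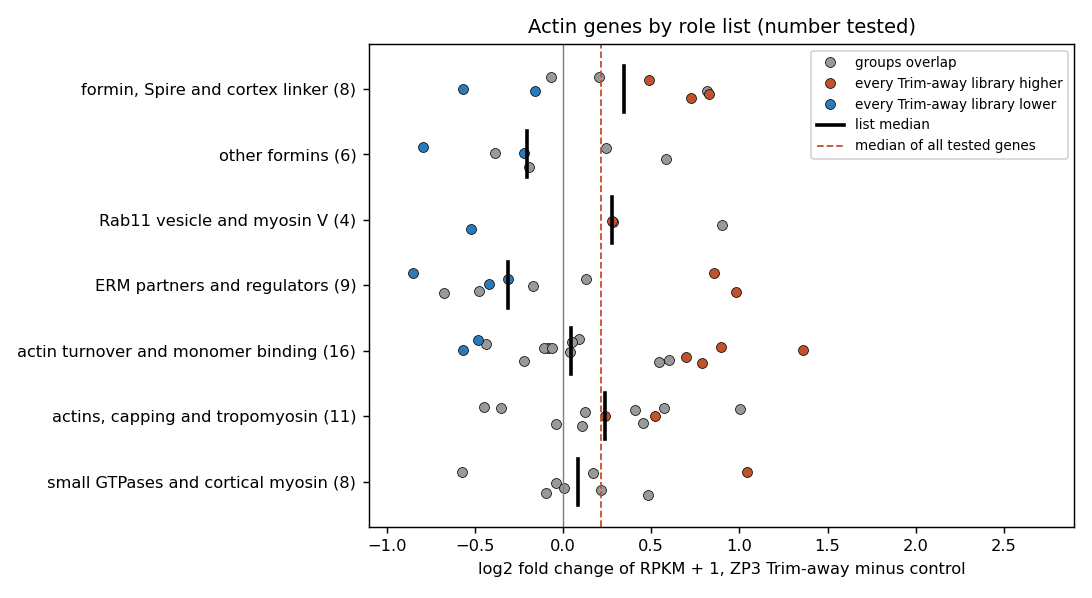
Log2 fold change of RPKM + 1, ZP3 Trim-away minus control (horizontal axis), of each tested gene (points) in the 7 lists (vertical axis, number tested in brackets). Orange and blue points mark genes whose 3 Trim-away libraries all lay above or all below the controls, black bars are list medians and the dashed line is the median of all tested genes. List medians ran from -0.31 for ERM partners and regulators to 0.35 for the formin, Spire and cortex linker genes. Of the latter, 2 (Spire2 and Ezr) passed the filter only through the Trim-away libraries. None of the points passed the threshold, and the trend with exon length was not removed.

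Of the other formins, 6 were tested, 4 of them with negative values, and the median was -0.21. Daam1, a formin downstream of Wnt signalling, had the highest mean over the 6 libraries, 22.3 RPKM, close to the 22.2 RPKM of Diaph3, and stood at 25.3 RPKM on average among controls and 19.3 RPKM among Trim-away libraries. Fmnl3 stood at 11.7, 9.95 and 16.6 RPKM in the 3 controls and, after ZP3 Trim-away, at 6.46, 6.50 and 7.40 RPKM. Its groups did not overlap, like those of Fmn2 (log2 fold change -0.80 ± 0.25, limma adjusted p = 0.133). Fmn1, the closest relative of Fmn2, had the most positive value of these formins, 0.58 ± 0.37, with means of 0.951 and 1.89 RPKM, and passed the filter only through the Trim-away libraries.

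Of the Rab11 vesicle and myosin V genes, 4 were tested, with a median of 0.28. Rab11a, the small GTPase that marks the vesicles on which the network is built, stood at 6.55, 19.0 and 23.1 RPKM in the 3 controls and, after ZP3 Trim-away, at 50.8, 26.0 and 16.0 RPKM. As for Pfn1, control replicate 1 was the lowest and Trim-away replicate 1 the highest of the 6 libraries (log2 fold change 0.90 ± 0.50, limma adjusted p = 0.362). Rab11fip4, encoding a Rab11 effector, had the most negative value of the list, -0.52 ± 0.22 (limma adjusted p = 0.239).

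Of the ERM partners and regulators, 9 were tested, 6 of them with negative values, and the median was -0.31. Rock1, a kinase that phosphorylates the regulatory subunit of myosin phosphatase, stood at 24.0, 20.6 and 22.2 RPKM in the 3 controls and, after ZP3 Trim-away, at 13.2, 12.3 and 10.4 RPKM. The groups lay well apart (log2 fold change -0.85 ± 0.18, limma adjusted p = 0.063). Ppp1r12a, encoding that regulatory subunit, which also serves to dephosphorylate ERM proteins, stood at 204, 201 and 208 RPKM in the 3 controls and, after ZP3 Trim-away, at 154, 161 and 143 RPKM. It was the most abundant gene of the 6 lists, and its groups lay apart as well (-0.42 ± 0.10, limma adjusted p = 0.075). Slc9a3r1, encoding the scaffold EBP50 that binds ezrin, had the most positive value, 0.98 ± 0.41 (limma adjusted p = 0.235). Pdpn, encoding the membrane glycoprotein podoplanin that binds ERM proteins, was at 34.8, 22.0 and 24.8 RPKM in the 3 controls and, after ZP3 Trim-away, at 58.3, 46.3 and 43.8 RPKM (0.86 ± 0.20, limma adjusted p = 0.075). Pdpn was named after its values were seen.

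Of the actin turnover and monomer-binding genes, 16 were tested, with a median of 0.05. Cfl2, the other cofilin, stood at 32.8, 35.4 and 28.3 RPKM in the 3 controls and, after ZP3 Trim-away, at 59.8, 40.8 and 59.7 RPKM. As for Cfl1, each Trim-away library lay above each control (log2 fold change 0.70 ± 0.19, limma adjusted p = 0.096). Pfn2, a further profilin gene, stood at 0.274, 2.13 and 4.03 RPKM in the 3 controls and, after ZP3 Trim-away, at 6.26, 7.56 and 4.49 RPKM, the most positive value of the 6 lists (1.36 ± 0.49, limma adjusted p = 0.182). Ssh1, encoding a phosphatase that activates cofilin, had the most negative value of the list, -0.57 ± 0.31 (limma adjusted p = 0.354).

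Of the actins, capping proteins and tropomyosins, 11 were tested, with a median of 0.24. Capza2, encoding a capping protein subunit, had the highest level, 38.1 RPKM on average among controls and 45.1 RPKM among Trim-away libraries (0.24 ± 0.15). Tpm4, a tropomyosin, had 1.00 ± 0.44 (limma adjusted p = 0.254), and Actg1, the gamma cytoplasmic actin, had -0.45 ± 0.41. Actg1 was listed at 0.598 to 2.24 RPKM, and reads shared with other actin genes were not examined. Its mean was 1.69 RPKM among controls and 0.931 RPKM among Trim-away libraries. Actg1 thus passed the filter only through the controls, and its direction was partly fixed by it. Of the small GTPases and cortical myosin genes, 8 were tested, with a median of 0.09. Cdc42, a GTPase that drives cortical actin assembly, had the highest level, 95.7 RPKM on average among controls and 111 RPKM among Trim-away libraries (0.21 ± 0.13). Myl6, a myosin light chain, had 1.04 ± 0.36 (limma adjusted p = 0.167), and Myh10, the heavy chain of non-muscle myosin IIB, had -0.57 ± 0.35.

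Some genes of the role lists were too scarce to be tested but had reads in ZP3 Trim-away alone. Of 90 listed genes, the 9 genes above included, 5 had 0 reads in all 3 controls and reads in all 3 Trim-away libraries, and 0 had the opposite pattern. In the whole table of 25731 genes, 4.98% had the first pattern and 0.0583% the second. The first pattern was thus about as frequent in the lists as in the whole table, where 1281 genes had it, and is not particular to them. The shares were not matched for level. A mean of 1 RPKM was reached by 54 of 81 genes of the role lists, against 9965 of 25731 in the whole table. Rhoc, a small GTPase gene, stood at 1.06, 0.786 and 1.50 RPKM in ZP3 Trim-away, from 27, 20 and 37 reads, where 0 reads in the controls allow at most 0.107 RPKM. Rhob, its relative, stood at 0.487, 0.217 and 0.780 RPKM, Gsn, the gene of the severing protein gelsolin, at 0.845, 0.705 and 0.642 RPKM, and Slc9a3r2, encoding a scaffold that binds ERM proteins, at 0.408, 0.817 and 0.618 RPKM. Tpm2, a tropomyosin gene, stood at 0.175, 0.240 and 0.585 RPKM, from 8, 11 and 26 reads. All 5 were chosen after their values were seen. The summed cumulus and granulosa marker level was also higher in each Trim-away library than in each control, and its part in these values was not tested.

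The genes whose pattern over the 6 libraries was most like that of Fmn2 were sought among 3458 other genes whose mean reached 10 RPKM, by Pearson's r on log2(RPKM + 1). They were Rbm27, an RNA-binding protein gene (r = 0.99), Actr2, a subunit of the Arp2/3 actin nucleator (r = 0.98), and Dclk2, a doublecortin-like kinase gene (r = 0.98). Rbm27 stood at 39.0, 35.7 and 32.1 RPKM in the 3 controls and, after ZP3 Trim-away, at 22.8, 19.2 and 25.8 RPKM. Actr2 stood at 94.0, 93.6 and 87.6 RPKM in the 3 controls and, after ZP3 Trim-away, at 77.1, 74.1 and 82.3 RPKM. In both genes, as in Fmn2, control replicate 3 was the lowest control, and Trim-away replicate 2 was the lowest library of all. These correlations describe 6 libraries of 2 groups, picked as the highest of many, and carry no test.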

How the data were processed

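Libraries were made with a NEBNext low-input kit. The deposited table holds RPKM values. The authors checked reads with FastQC 0.11.9, trimmed them (Trimmomatic), aligned them (HISAT2, SAMtools), counted them per gene (htseq-count) and scaled the counts to RPKM. Other versions were not given in the sources used. The labels name build GRCm39 and the study's methods GRCm38, so no coordinates are printed. Exon lengths came from GENCODE M21, for 24959 genes. RPKM times exon length and library total gave reads within 0.01 of a whole number for 94.9 to 95.9% of values, and for 9.60 and 9.03% in control replicates 2 and 3 before separation. Rdx lay 0.1 to 0.4 of a read from a whole number. Totals were those that made the reads whole.

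Genes whose mean reached 1 RPKM entered a limma 3.58.1 fit (R 4.3.3) of log2(RPKM + 1), a scale that understates changes of low genes, with a trended prior spread and no covariate. The fit was tested on simulated data. Shares were compared by exact permutation over 20 assignments. Floors are 3 reads. Alternatives changed the columns, pseudocount, filter, scaling, prior, length trend and libraries. From each role list, every gene that passed and the tested genes with the highest mean and the most positive and most negative difference were named. The members and lists were chosen with earlier results of these data known.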

Additional observations from a re-analysis of the deposited data

How the results depend on the processing

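The difference of the 8 tested genes kept its sign in all alternatives run, except for Spire1, whose value was -0.041 with the columns as deposited and, without single libraries, ran from -0.051 (without control replicate 2) to 0.42, and the cause was not tested. Spire2 and Ezr were not tested with the filter of 10 RPKM, nor Spire2 without ZP3 Trim-away replicate 1, because their means fell under the filter. With the columns as deposited, 4 of the 9 genes were called (Ezr and Cfl1 higher, Fmn2 and Msn lower). So were 23 of 54 tested genes of the role lists (13 higher, 10 lower) and 3707 of all 9950 tested genes. Control replicate 1 enters all 3 control columns there. In every other setting none of the 9 genes was called. Of the role lists, 5 of 23 tested genes were called with a filter of 10 RPKM (Cfl2, Tmsb10 and Pdpn higher, Rock1 and Ppp1r12a lower). Fewer genes were tested there, and 368 of all 3459 were called. With quantile normalization 1 gene of the lists was called (Ppp1r12a lower). Without single libraries the number called from the lists was 0 to 2 (Pdpn and Tmsb10, without control replicate 1).

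The count over all genes, 63 in the main setting (59 higher, 4 lower), was 368 with the filter of 10 RPKM, 35 with the length trend removed (13 higher, 22 lower), 24 (18 higher, 6 lower) with quantile normalization, 19 with a pseudocount of 0.1, 15 with Trim21 left out of the totals, 12 with median ratio scaling (9 higher, 3 lower), 11 with a prior spread without a trend and 0 with no filter (3323 at an unadjusted p under 0.05, limma). It ranged from 0 without any 1 of the Trim-away libraries (1100 to 1238 unadjusted) to 300 without control replicate 2, with 162 and 125 without control replicates 1 and 3. The cause of these shifts was not tested. With a replicate block the count was 0 (1733 unadjusted, limma), and 0 of the 9 genes were called. The deviations of same-numbered libraries from their group means had correlations of -0.06, 0.02 and -0.05, so no shared deviation was seen. These values cannot tell whether same-numbered pools were collected or processed together. The shares of Rdx and Spire1 kept their direction, from -0.81 to -0.20 and from -3.69 to -1.26 percentage points without single libraries, and the Rdx share was -0.18 with the columns as deposited. Depth limits Spire2, Ezr and Msn, which rested on at most 306 reads.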
